A study of Homo sapiens with 23 samples.

Results

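The 10 genes described here, ATF4, DDIT3, ASNS, PSAT1, PHGDH, TRIB3, SESN2, CHAC1, HSPA5 and XBP1, belong to the cellular response to amino acid shortage and to protein stress in the endoplasmic reticulum (ER). They were taken by their NCBI Gene IDs from a table of 21658 genes, and all 10 were measured. RNA sequencing covered 4 established ovarian cancer cell lines, Kuramochi, OVSAHO, OV-90 and EFO-21, each as the parental line and as a line made resistant to prexasertib, a CHK1 kinase inhibitor, by raising the drug concentration over a long period. There were 23 libraries, 3 for each of the parental and resistant forms of a line, except for parental OV-90 with 2. The labels call the libraries of a group biological replicates of 1 parental or 1 resistant line, so the spread between them is that between cultures of the same line and not between separate derivations of resistance. Whether the resistant cultures held drug at harvest was not given in the sources used here.

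When amino acids run short, uncharged tRNA activates the kinase GCN2, and when unfolded proteins collect in the ER, the kinase PERK is activated. Both phosphorylate the translation factor eIF2, which lowers protein synthesis in general but favours translation of the ATF4 messenger. ATF4 protein, a basic leucine zipper (bZIP) transcription factor, then raises genes for amino acid synthesis and uptake, and with DDIT3 (also called CHOP) it raises further stress genes. The other arms of the ER response work through ATF6 and through IRE1, which splices the XBP1 messenger, and they raise chaperones such as HSPA5 (BiP). ATF4 is thus largely controlled at translation and XBP1 by splicing, and the values here, which are of messenger RNA summed over a gene, show neither step.

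The promoters of 4 of the 10 genes hold the letters of a motif through which these factors are known to act, and they are printed because the 2 genes with the largest changes, ASNS and CHAC1, are among them. The sequences are the RefSeq promoter windows, here given at their exact match in GRCh37, read 5′ to 3′ on the strand of the gene, with the motif in capitals and 25 bases on each side. The first pair holds TGATGNAA, the core of the C/EBP-ATF response element bound by ATF4, which lies at 68 to 61 bases before the start of transcription of ASNS and, on the opposite strand, 209 to 202 bases before that of CHAC1. The second pair holds the ER stress response element, CCAAT and CCACG with any 9 bases between them, at 66 to 48 bases before the start of HSPA5 and 52 to 34 before that of XBP1.
ASNS, chr7:97501756-97501813, minus strand: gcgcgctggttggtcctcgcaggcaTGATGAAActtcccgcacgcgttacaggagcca
CHAC1, chr15:41245435-41245492, plus strand: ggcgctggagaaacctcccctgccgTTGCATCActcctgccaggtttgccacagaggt
HSPA5, chr9:128003645-128003713, minus strand: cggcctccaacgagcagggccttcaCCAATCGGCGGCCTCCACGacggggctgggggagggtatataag
XBP1, chr22:29196566-29196634, minus strand: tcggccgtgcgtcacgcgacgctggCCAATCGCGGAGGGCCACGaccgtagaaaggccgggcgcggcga
Both strands of the 250 bases before each start were searched, and the 2 motifs do not overlap each other in these windows. TGATGNAA was found in 870 of 27305 promoters (3.19%), in 8 of 99 promoters of the wider pathway described below (8.08%) and in 2 of the 10 genes. The ER stress response element was found in 22 of 27305 promoters (0.081%), in 4 of the 99 pathway promoters (4.04%) and in 2 of the 10 genes. A match of letters is a description of the sequence, and no match in the other 6 genes says only that these letters are not in the window.

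In the following, all values are the deposited quantile-normalized log2 expression values, so that a difference of 1 is a 2-fold change, and libraries are named by the number from 2 to 24 that their columns carry. A gene was counted as changed in a line when limma gave an adjusted p under 0.05 over all 21658 genes and the resistant and parental means differed by at least 2-fold. Libraries of a group correlated at 0.971 or more across genes, except the pair of parental OV-90 libraries at 0.952, and no correlation between libraries of different lines exceeded 0.808. Of 7 epithelial and Mullerian ovarian markers, 3 to 7 lay above the median gene in each group, with summed values of 41.8 to 63.7. In parental OV-90, PAX8, WT1, MUC16 and KRT7 were low (2.1, 1.87, 1.15 and 2.92), while EPCAM, KRT8 and KRT18 were high (12.3, 11.4 and 12.08). Low values were not confined to OV-90, with WT1 at 1.03 in parental EFO-21 and MUC16 at 2.48 in parental Kuramochi. Of markers for other cell types, 0 to 1 of 4 haematopoietic, 0 to 2 of 3 endothelial and 0 to 3 of 4 fibroblast genes lay above the median gene, with summed values of 5.7 to 15.5, 2.8 to 21.8 and 6.6 to 27.4. The highest of these was LUM, a fibroblast marker, at 12.76 in parental OV-90. The endothelial markers PECAM1 and CDH5 stood at 8.48 and 9.11 in parental EFO-21. The epithelial sum was 53.5 in parental and 42.4 in resistant Kuramochi, and 63.7 and 52.6 in OVSAHO. In OVSAHO the fibroblast sum was 11.8 in parental and 20.9 in resistant libraries, with 1 and 3 of the 4 genes above the median gene. The part of these differences in the results was not tested.

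The 10 genes did not move as 1 block with resistance. Across 40 gene-by-line comparisons, 2 changed, namely ASNS, which rose in resistant Kuramochi, and CHAC1, which fell in resistant OV-90. A further 22 comparisons had an adjusted p under 0.05 with a difference below 2-fold. In Kuramochi 1 of 10 genes changed, against 22.5% of all genes (11.8% higher and 10.6% lower). In OVSAHO 0 of 10 changed, against 7.76% of all genes (3.93% higher and 3.83% lower). In OV-90 1 of 10 changed, against 16.1% (9.5% higher and 6.56% lower), and in EFO-21 0 of 10, against 14.3% (7.11% higher and 7.15% lower). Without a fold threshold, 9 of 10 genes passed in Kuramochi, against 46.9% of all genes, and 5 of 10 passed in each of OVSAHO (33.3% of all genes), OV-90 (36%) and EFO-21 (48.4%). The values of resistant and parental libraries were without overlap for 10 of 10 genes in Kuramochi (59.2% of all genes), 6 of 10 in OVSAHO (48.4%), 7 of 10 in OV-90 (69.1%) and 6 of 10 in EFO-21 (59.7%). The median size of the differences, regardless of sign, was 0.71 for the 10 genes and 0.51 for all genes in Kuramochi, 0.29 and 0.28 in OVSAHO, 0.34 and 0.55 in OV-90, and 0.39 and 0.36 in EFO-21.

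**Figure D1:**
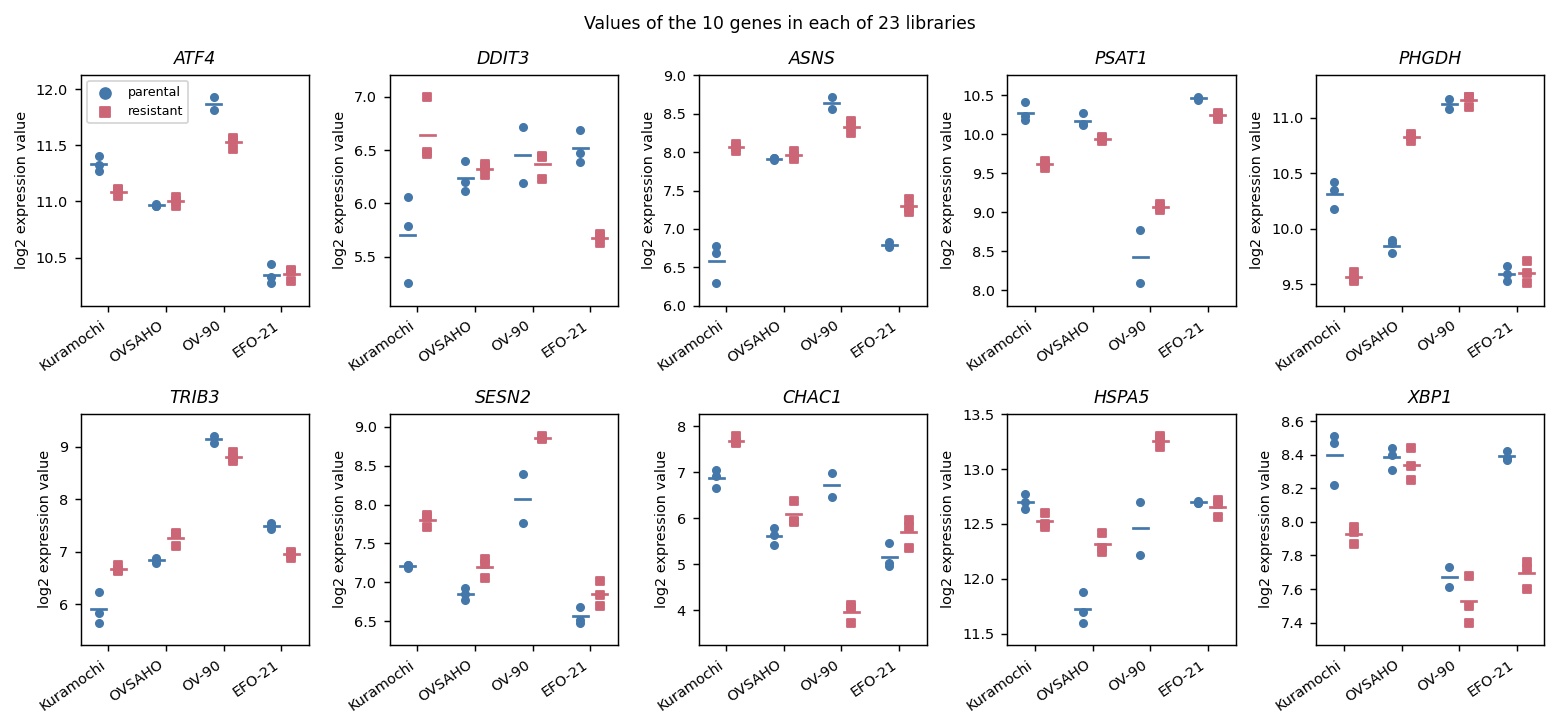
Log2 expression value of each of the 10 genes in each of the 23 libraries, by cell line, with parental libraries as circles, resistant libraries as squares and bars at group means; each panel has its own vertical scale. ASNS lies near 8 in all 3 resistant Kuramochi libraries and below 7 in the parental ones, and CHAC1 falls from 6.73 to 3.97 in OV-90.

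ATF4 (chr22:39915700-39918688, plus strand, GRCh37), the central transcription factor of the response, was lower in 2 resistant lines and showed no detectable difference in the others. In Kuramochi it stood at 11.27, 11.32 and 11.40 in the parental libraries and at 11.05, 11.11 and 11.10 in the resistant ones. In OV-90 the parental values were 11.81 and 11.93 and the resistant ones 11.56, 11.55 and 11.47. The groups did not overlap in either line, and the resistant libraries were the lower ones. The difference was -0.25 (SE 0.06, n = 3 and 3, limma adjusted p = 0.0121) in Kuramochi and -0.34 (SE 0.07, n = 2 and 3, limma adjusted p = 0.0257) in OV-90. Without library 16 the adjusted p in Kuramochi was 0.0565, and without any 1 of the 3 resistant OV-90 libraries it was 0.0907 to 0.103. In OVSAHO the parental libraries lay at 10.96 to 10.98 and the resistant at 10.96 to 11.04, and in EFO-21 they lay at 10.27 to 10.44 and 10.29 to 10.39. Both pairs of groups overlapped, and the 95% intervals of the difference, -0.04 to 0.11 in OVSAHO and -0.13 to 0.14 in EFO-21, exclude a change of 2-fold in either direction. The table also lists the ATF4 pseudogenes ATF4P3, at 8.12 to 10.65, and ATF4P4, at 6.98 to 9.52, whose line-centred values had Pearson r of 0.82 and 0.79 with ATF4 over the 23 libraries. How reads shared with such copies were divided is not given, so the level of ATF4 is uncertain to that extent.

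DDIT3 (chr12:57910371-57915520, minus strand), the bZIP factor linked to cell death under lasting ER stress, moved in opposite directions in Kuramochi and EFO-21. Its parental Kuramochi values were 5.25, 5.79 and 6.06, and its resistant ones were 6.48, 6.46 and 7.0. In EFO-21 the parental libraries held 6.39, 6.69 and 6.47 and the resistant ones 5.63, 5.69 and 5.71. All resistant libraries were thus above the parental ones in Kuramochi and below them in EFO-21. The difference was 0.94 in Kuramochi (SE 0.25, n = 3 and 3, limma adjusted p = 0.0237) and -0.84 in EFO-21 (SE 0.10, n = 3 and 3, limma adjusted p = 0.00114), in both cases below 2-fold. The Kuramochi value is the less firm of the pair, since the adjusted p was 0.0518 to 0.0697 without library 5, 16 or 18, while without library 6 or 17 the difference was 1.12 or 1.04 and passed both thresholds. The change in Kuramochi minus that in EFO-21 was 1.78 (SE 0.26, limma adjusted p = 1.26e-05). In OVSAHO the difference was 0.08 (95% interval -0.14 to 0.31) and in OV-90 it was -0.08 (-0.60 to 0.44), with overlapping groups in both.

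ASNS (chr7:97480989-97501854, minus strand), asparagine synthetase, was the gene with the largest rise of the 10. In Kuramochi the parental libraries held 6.29, 6.68 and 6.78 and the resistant libraries 8.01, 8.07 and 8.11. All 3 resistant libraries stood more than 1 unit above the highest parental one. The difference was 1.48, or 2.79-fold (SE 0.14, 95% interval 1.15 to 1.81, n = 3 and 3, limma adjusted p = 0.000321), and it was 1.34 to 1.58 with any 1 library left out. Resistant EFO-21 held 7.22, 7.39 and 7.27 against 6.83, 6.78 and 6.77 in the parental libraries. These groups did not overlap either, and the difference of 0.50 was below 2-fold (SE 0.06, n = 3 and 3, limma adjusted p = 0.00121). In OVSAHO the values were 7.93, 7.92 and 7.90 in parental and 8.02, 7.95 and 7.91 in resistant libraries, which overlap, and the difference was 0.04 (95% interval -0.06 to 0.15, limma adjusted p = 0.487). In OV-90 the direction was the opposite, with 8.56 and 8.72 in parental and 8.40, 8.35 and 8.25 in resistant libraries. That difference of -0.31 did not pass (SE 0.09, n = 2 and 3, limma adjusted p = 0.0507), and it was -0.38 without library 2 and -0.23 without library 3. The pseudogene ASNSP1, listed at 0.00 to 5.47, had a line-centred r of 0.86 with ASNS, and shared reads between them are an open point of the counting.

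PSAT1 and PHGDH encode enzymes of serine synthesis, PHGDH the first step and PSAT1 the next. PSAT1 (chr9:80912041-80945009, plus strand) was lower in 3 resistant lines. In Kuramochi it went from 10.41, 10.24 and 10.18 in parental to 9.62, 9.66 and 9.57 in resistant libraries, a difference of -0.66 (SE 0.07, n = 3 and 3, limma adjusted p = 0.000636). In OVSAHO the parental values of 10.12, 10.13 and 10.28 stood above the resistant values of 9.95, 9.96 and 9.91, by a difference of -0.23 (limma adjusted p = 0.0155), which did not pass without library 21 (limma adjusted p = 0.0568) or in 1 fit of all 23 libraries (limma adjusted p = 0.122). In EFO-21 the parental values of 10.48, 10.46 and 10.44 stood above the resistant 10.20, 10.25 and 10.28 by a difference of -0.22 (SE 0.03, n = 3 and 3, limma adjusted p = 0.00207), which did not pass in 1 fit of all 23 libraries either (limma adjusted p = 0.116). All 3 differences were below 2-fold, with no overlap between the groups. OV-90 went the other way, with 8.09 and 8.77 in parental and 9.07, 9.11 and 9.03 in resistant libraries. The parental libraries lie far apart there, so that the difference of 0.64 did not pass (SE 0.21, n = 2 and 3, limma adjusted p = 0.0695). It was 0.30 without library 2 and 0.98 without library 3, fits in which 1 parental library is left and the parental spread cannot be estimated.

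PHGDH (chr1:120191034-120286841, plus strand) was lower in resistant Kuramochi and higher in resistant OVSAHO. The Kuramochi libraries held 10.18, 10.35 and 10.42 as parental and 9.53, 9.55 and 9.61 as resistant, and the OVSAHO libraries held 9.87, 9.78 and 9.90 as parental and 10.84, 10.79 and 10.86 as resistant. In each line the groups are clearly apart, and in opposite order. The difference was -0.75 in Kuramochi (SE 0.07, n = 3 and 3, limma adjusted p = 0.000453) and 0.98 in OVSAHO (SE 0.04, n = 3 and 3, limma adjusted p = 0.000106). The OVSAHO value is 1.97-fold and so lies just under the fold threshold, which it reached without library 9 (1.01) or library 20 (1.0). In OV-90 and EFO-21 the groups overlapped, at 11.08 to 11.19 and 9.51 to 9.71, and the differences of 0.03 (95% interval -0.13 to 0.20) and 0.01 (-0.14 to 0.17) were within the spread of the libraries. PHGDH and PSAT1, neighbouring steps of 1 pathway, were therefore both lower in Kuramochi but stood on opposite sides in OVSAHO.

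TRIB3 (chr20:343479-378203, plus strand), a pseudokinase that dampens ATF4 and DDIT3 activity, followed DDIT3 in direction in Kuramochi and EFO-21. In Kuramochi the parental libraries held 5.65, 5.83 and 6.23 and the resistant ones 6.65, 6.64 and 6.75. In EFO-21 the parental libraries held 7.55, 7.44 and 7.49 and the resistant ones 7.0, 6.96 and 6.89. The groups did not overlap in either line, with differences of 0.77 (SE 0.16, n = 3 and 3, limma adjusted p = 0.00952) and -0.54 (SE 0.05, n = 3 and 3, limma adjusted p = 0.000535). OVSAHO resembled Kuramochi, with 6.79, 6.84 and 6.88 in parental and 7.34, 7.36 and 7.10 in resistant libraries, a difference of 0.43 (SE 0.08, n = 3 and 3, limma adjusted p = 0.0114). In OV-90, parental values of 9.08 and 9.20 stood above the resistant 8.72, 8.78 and 8.90, a difference of -0.34 (SE 0.08, n = 2 and 3, limma adjusted p = 0.0385). That adjusted p was 0.0981 to 0.133 without any 1 of the resistant OV-90 libraries, and the difference was -0.28 without library 3. The change in Kuramochi minus that in EFO-21 was 1.32 (SE 0.15, limma adjusted p = 8.71e-07).

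SESN2 (chr1:28586029-28609002, plus strand), a sestrin that senses leucine and restrains mTORC1, was higher in the resistant form of all 4 lines, the 1 gene of the 10 for which this was so. Its parental Kuramochi values of 7.22, 7.18 and 7.22 stood below the resistant 7.86, 7.84 and 7.71. The OVSAHO libraries held 6.85, 6.77 and 6.93 against 7.24, 7.30 and 7.06, and the EFO-21 libraries 6.48, 6.68 and 6.52 against 7.01, 6.84 and 6.70. In OV-90 the parental libraries held 7.76 and 8.39 and the resistant ones 8.86, 8.88 and 8.84. In each line every resistant library was above every parental library. Groups were without overlap, in either direction, for 59.2% of all genes in Kuramochi, 48.4% in OVSAHO, 69.1% in OV-90 and 59.7% in EFO-21. How many of all genes kept 1 direction in all 4 lines was not counted. The difference was 0.60 in Kuramochi (SE 0.07, n = 3 and 3, limma adjusted p = 0.000971), 0.35 in OVSAHO (SE 0.08, n = 3 and 3, limma adjusted p = 0.0223) and 0.78 in OV-90 (SE 0.19, n = 2 and 3, limma adjusted p = 0.0389). In EFO-21 the difference of 0.29 did not pass (SE 0.10, n = 3 and 3, limma adjusted p = 0.0593), although it did without library 24 (0.36, limma adjusted p = 0.0373). None reached 2-fold, except that the OV-90 value was 1.09 without library 3, and 0.46 without library 2. The adjusted p exceeded 0.05 in OVSAHO without library 7, 8, 19 or 20 (0.0622 to 0.0749) and in OV-90 without any 1 resistant library (0.11 to 0.12).

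CHAC1 (chr15:41245160-41248710, plus strand), an enzyme that breaks down glutathione, had the largest difference of the 10 genes. In OV-90 the parental libraries held 6.47 and 6.98 and the resistant libraries 4.12, 3.73 and 4.05. The 3 resistant OV-90 libraries were the lowest of all 23 for this gene. The difference was -2.76, or 6.77-fold lower (SE 0.24, 95% interval -3.40 to -2.12, n = 2 and 3, limma adjusted p = 0.00792). It was -3.02 to -2.50 with any 1 library left out, and its adjusted p was 0.0515 without library 13 and 0.0531 without library 15, so that with 2 resistant libraries the call was lost in 2 of 3 cases while the size of the difference was not. The other 3 lines went the opposite way. Resistant Kuramochi held 7.63, 7.65 and 7.78 against 6.92, 6.66 and 7.05 in parental libraries, a difference of 0.81 (SE 0.12, n = 3 and 3, limma adjusted p = 0.00212). In OVSAHO, with 5.79, 5.64 and 5.42 against 6.38, 5.92 and 5.94, the difference of 0.46 did not pass (SE 0.17, n = 3 and 3, limma adjusted p = 0.0821), and in EFO-21, with 5.03, 5.46 and 4.95 against 5.96, 5.80 and 5.35, neither did 0.56 (SE 0.22, n = 3 and 3, limma adjusted p = 0.0773). The EFO-21 difference passed without library 11 (0.72, limma adjusted p = 0.0484) or library 24 (0.73, limma adjusted p = 0.0366). The Kuramochi and OVSAHO groups do not overlap, whereas in EFO-21 the lowest resistant library lies below the highest parental one. CHAC1 and ASNS, whose promoters carry the same response element core in the sequences above, both stood higher in resistant Kuramochi. So did DDIT3, TRIB3 and SESN2, whose windows hold no match. In OV-90 CHAC1 fell while the ASNS difference of -0.31 did not pass. A part of the motif in these differences was not tested.

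HSPA5 (chr9:127997132-128003661, minus strand), the main chaperone of the ER lumen, was higher in resistant OVSAHO and OV-90. In OVSAHO the parental libraries held 11.60, 11.70 and 11.88 and the resistant ones 12.24, 12.28 and 12.42, a difference of 0.59 (SE 0.09, n = 3 and 3, limma adjusted p = 0.00476). In OV-90 the parental libraries held 12.22 and 12.70 and the resistant ones 13.30, 13.20 and 13.28, a difference of 0.80 (SE 0.16, n = 2 and 3, limma adjusted p = 0.0258). In both lines all resistant libraries were above the parental ones. The OV-90 value was 0.56 without library 2 and 1.04 without library 3, and its adjusted p was 0.0816 to 0.1 without any 1 resistant library. In Kuramochi the resistant libraries, at 12.47 to 12.60, lay just below the parental ones at 12.64 to 12.77, and the difference of -0.18 did not pass (limma adjusted p = 0.0573). In EFO-21 the groups overlapped and the difference was -0.04 (95% interval -0.16 to 0.07).

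XBP1 (chr22:29190543-29196585, minus strand), the factor activated by IRE1 splicing, had a lower mean in the resistant form of all 4 lines, the reverse of SESN2. In EFO-21 it went from 8.42, 8.38 and 8.37 in parental to 7.60, 7.72 and 7.76 in resistant libraries, and in Kuramochi from 8.22, 8.51 and 8.47 to 7.87, 7.97 and 7.94. In these 2 lines the groups were apart, with differences of -0.69 (SE 0.05, n = 3 and 3, limma adjusted p = 0.000201) and -0.48 (SE 0.09, n = 3 and 3, limma adjusted p = 0.00678). In OVSAHO the libraries held 8.44, 8.31 and 8.40 against 8.33, 8.25 and 8.44, and in OV-90 7.73 and 7.61 against 7.50, 7.68 and 7.40. These groups overlapped, and the differences of -0.05 (95% interval -0.20 to 0.11) and -0.14 (-0.44 to 0.15) did not pass. HSPA5 carries the same response element in its promoter, and in OVSAHO and OV-90, where HSPA5 was higher in the resistant libraries, XBP1 showed no detectable difference. A part of the element in this was not tested.

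**Figure D2:**
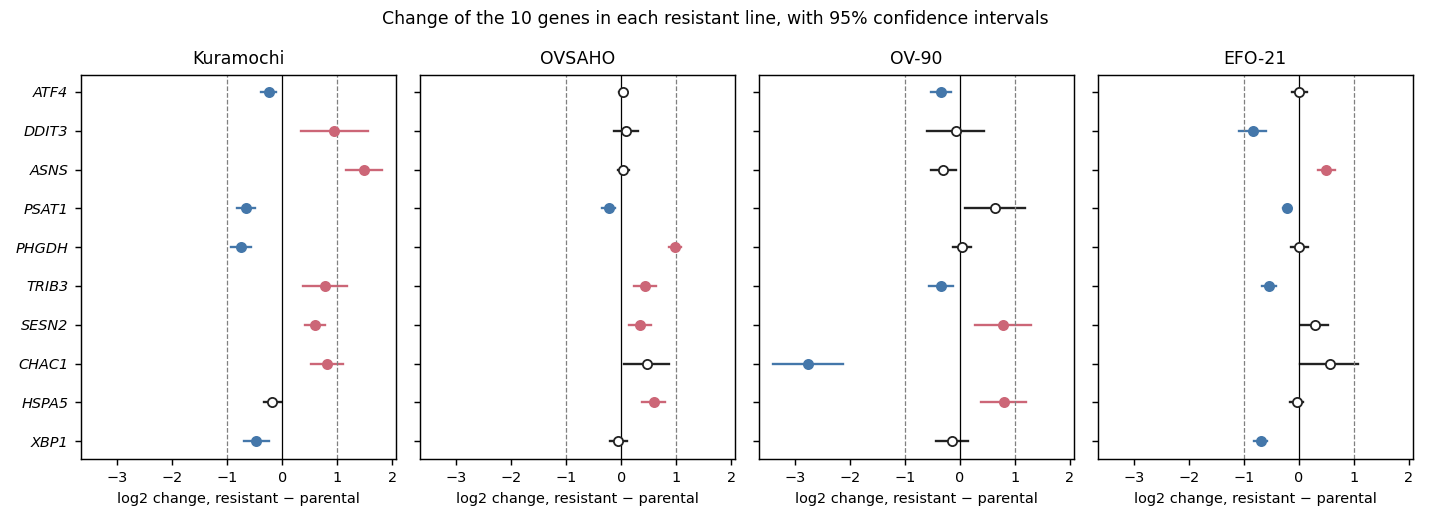
Difference of resistant minus parental log2 means for the 10 genes in each line, with 95% confidence intervals from limma; filled points have an adjusted p under 0.05 (red higher, blue lower), open points do not, and dashed lines mark 2-fold. The points beyond the dashed lines are ASNS in Kuramochi at 1.48 and CHAC1 in OV-90 at -2.76.

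To describe the average difference over these 4 lines, they were fitted together with the line as a block. The units of this fit were the 23 libraries and not the 4 lines. Its p-values therefore do not measure the spread between derivations of resistance and do not extend to other lines. SESN2 was higher by 0.49 on average (SE 0.08, limma adjusted p = 9.09e-05), and ASNS was higher by 0.47 (SE 0.15, limma adjusted p = 0.024). XBP1 differed by -0.35 (SE 0.07, limma adjusted p = 0.00136) and ATF4 by -0.13 (SE 0.05, limma adjusted p = 0.0489). These 4 of 10 genes passed without a fold threshold, against 33% of all genes, and 0 of 10 reached 2-fold, against 6.09% of all genes. The averages of SESN2 and XBP1 held with all libraries of any 1 line left out, at 0.41 to 0.56 for SESN2 (limma adjusted p of 0.000273 to 0.00229) and -0.46 to -0.23 for XBP1 (limma adjusted p of 0.000811 to 0.034). The ASNS average did not, being 0.11 without Kuramochi (limma adjusted p = 0.392) and not passing without EFO-21 either (0.46, limma adjusted p = 0.101). That of ATF4 was -0.08 without Kuramochi and -0.07 without OV-90, with adjusted p of 0.256 and 0.282 in limma, and it also failed without any 1 of libraries 2 to 6, 11, 13 to 18, 21 and 24 (limma adjusted p of 0.0541 to 0.11). HSPA5 averaged 0.26 and just missed the threshold (SE 0.10, limma adjusted p = 0.0516). It passed without Kuramochi (0.42, limma adjusted p = 0.00774) or EFO-21 (0.37, limma adjusted p = 0.0333), as well as without any 1 of libraries 4, 6, 12, 16, 18 and 22 (limma adjusted p of 0.0302 to 0.0481). Without OVSAHO or OV-90 the HSPA5 average was 0.15 and 0.12 (limma adjusted p = 0.376 and 0.348). PHGDH passed without Kuramochi alone, at 0.36 (SE 0.12, limma adjusted p = 0.0297). Leaving out OV-90 let CHAC1 pass as higher on average, at 0.61 (SE 0.11, limma adjusted p = 0.000788), and PSAT1 as lower, at -0.37 (SE 0.06, limma adjusted p = 0.000414). PSAT1 also passed as lower without library 2 alone (-0.28, limma adjusted p = 0.0091).

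The difference between resistant and parental libraries depended on the line for most of the genes. An F test of the line-by-resistance interaction passed for 9 of 10, against 75.1% of all genes. The adjusted p was lowest for PHGDH (1.65e-10), ASNS (9.76e-09) and CHAC1 (1e-08), and SESN2 did not pass (limma adjusted p = 0.0538). Without library 3 or library 22 SESN2 did pass (limma adjusted p = 0.000244 and 0.0322), so the SESN2 difference is not shown to be of equal size in the 4 lines. The change of CHAC1 in OV-90 differed from that in each other line, at -3.32 for OV-90 minus EFO-21, 3.22 for OVSAHO minus OV-90 and 3.57 for Kuramochi minus OV-90 (SE 0.28 each). Of all genes, 24.9%, 17.1% and 33.8% differed by at least 2-fold in these 3 comparisons. For ASNS the rise in Kuramochi exceeded the change in OVSAHO by 1.44 (SE 0.13, limma adjusted p = 4.25e-08) and that in EFO-21 by 0.98 (95% interval 0.71 to 1.25), comparisons in which 24.3% and 26.6% of all genes were called. Between OVSAHO and EFO-21, where 15.7% of all genes were called, PHGDH differed by 0.97 and TRIB3 by 0.97 (SE 0.09 and 0.15), both just under 2-fold.

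The parental lines differed among themselves in all 10 genes, against 93.5% of all genes in the same F test, and the order of the lines was not the same for each gene. In single pairs of parental lines, without a fold threshold, 62.5% of all genes differed between Kuramochi and OVSAHO, 69% between Kuramochi and OV-90, 67.1% between Kuramochi and EFO-21, 70% between OVSAHO and OV-90, 69% between OVSAHO and EFO-21, and 71.9% between OV-90 and EFO-21. ATF4 was highest in OV-90 (11.87), then Kuramochi (11.33), OVSAHO (10.97) and EFO-21 (10.35), and each neighbour in that order differed from the next (limma adjusted p of 1.36e-05 to 0.00075). TRIB3 ran from OV-90 (9.14) through EFO-21 (7.49) and OVSAHO (6.83) to Kuramochi (5.91), again with every neighbour apart. Parental OV-90 thus had the highest ATF4 and TRIB3 values of the 4 lines. ASNS was also highest there (8.64), followed by OVSAHO (7.92), while EFO-21 (6.79) and Kuramochi (6.58) did not differ beyond their spread (limma adjusted p = 0.137). Resistant Kuramochi, at 8.06 ± 0.05 (SD, n = 3), stood close to the parental ASNS level of OVSAHO, and the comparison across lines was not tested. PHGDH fell in the order OV-90 (11.12), Kuramochi (10.32), OVSAHO (9.85) and EFO-21 (9.60), with each neighbour apart. SESN2 in OV-90 (8.08) was above Kuramochi (7.20), and below it the steps to OVSAHO (6.85) and EFO-21 (6.56) did not pass (limma adjusted p = 0.054 and 0.0976).

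OV-90 was at the other end for 2 genes. Its parental PSAT1 level of 8.43 was below EFO-21 (10.46), Kuramochi (10.28) and OVSAHO (10.17), which did not differ from their neighbours, and the step from OVSAHO to OV-90 was 1.75 (SE 0.16, limma adjusted p = 5.43e-06). XBP1 was likewise at 7.67 in OV-90, with Kuramochi (8.40), EFO-21 (8.39) and OVSAHO (8.38) indistinguishable above it. CHAC1 was high in Kuramochi (6.88) and OV-90 (6.73), which did not differ, and lower in OVSAHO (5.62) and EFO-21 (5.15), whose own difference did not pass (limma adjusted p = 0.0505). HSPA5 was lowest in OVSAHO (11.73), with the other 3 at 12.46 to 12.70. DDIT3 was lowest in Kuramochi (5.70), just past the threshold against OVSAHO (6.24, limma adjusted p = 0.0497), and its F test did not hold without library 4 (limma adjusted p = 0.051).

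With line means removed, some of the 10 genes varied together over the 23 libraries. These correlations use values with the mean of each line subtracted, and the points share lines, conditions and normalization, so they describe the libraries and carry no test. The differences between resistant and parental libraries remain in these values, so the correlations partly restate the differences given above. DDIT3 and TRIB3 had the highest r (0.80, Spearman rho 0.75). ASNS and PSAT1 ran opposite (r -0.75, rho -0.84), and so did PSAT1 and CHAC1 (r -0.73, rho -0.85) and ASNS and XBP1 (r -0.65, rho -0.74). ATF4 itself had r of 0.55 with CHAC1 (rho 0.38), 0.43 with PHGDH and 0.39 with XBP1, and -0.01 with PSAT1 and -0.11 with TRIB3. Its r was -0.28 with DDIT3, -0.33 with HSPA5, -0.34 with ASNS and -0.61 with SESN2 (rho -0.64). Among 10828 genes with a mean above the median, those most like ASNS were CALCOCO2 (r 0.973), CPQ (0.971), CDC37 (0.971), DCPS (0.968) and SHMT1 (0.968), the last being a serine hydroxymethyltransferase of folate metabolism. Those most like ATF4 were CYP2S1 (0.913), CLPTM1L (0.9), BRD9 (0.892), SMARCD3 (0.891) and URB1-AS1 (0.888), and among those most like HSPA5 were TMEM30A (0.967), SEPTIN10 (0.954), SRP9P1 (0.948) and ADAM17 (0.946). Ranking by Spearman rho kept 0 of the 5 genes for ATF4 and 1 of the 5 for ASNS, so the names depend on the measure of likeness.

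Around the 10 genes, 121 other genes of the same response were examined in 8 lists, all of them measured. In Kuramochi 16 rose and 8 fell (19.8% changed, against 22.5% of all genes), in OVSAHO 5 rose and 1 fell (4.96%, against 7.76%), in OV-90 14 rose and 3 fell (14%, against 16.1%), and in EFO-21 1 rose and 8 fell (7.44%, against 14.3%). Without the fold threshold, 52.9%, 50.4%, 43% and 62.8% of the 121 genes passed in Kuramochi, OVSAHO, OV-90 and EFO-21, against 46.9%, 33.3%, 36% and 48.4% of all genes, so that the order of the 2 shares depends on the threshold. Of those passing below 2-fold, 23 were higher and 17 lower in Kuramochi, and 38 and 17 in OVSAHO. In OV-90 they were 21 and 14, and in EFO-21 42 and 25, beside 3865 and 3525 of all genes. The direction in EFO-21 thus also depends on the threshold. The median change of the 121 genes was 0.09, 0.13, 0.17 and 0.05 in the same order, beside -0.02, 0.00, -0.06 and 0.01 for all genes. In all, 44 of the genes changed in at least 1 line, of which 34 did so in 1 line, 8 in 2, 2 in 3 and 0 in 4, and 6 changed in opposite directions in different lines. The same was not counted over all genes, so these numbers do not show whether the 121 genes differ from the rest in this. The OV-90 counts varied widely when 1 of its 5 libraries was left out. Without any 1 of the 3 resistant libraries most of the OV-90 calls named below were lost, while their differences moved little. For SEL1L the difference was 1.73 to 1.9 in these fits, beside 1.82 with all libraries, with limma adjusted p of 0.0528 to 0.0667.

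**Figure D3:**
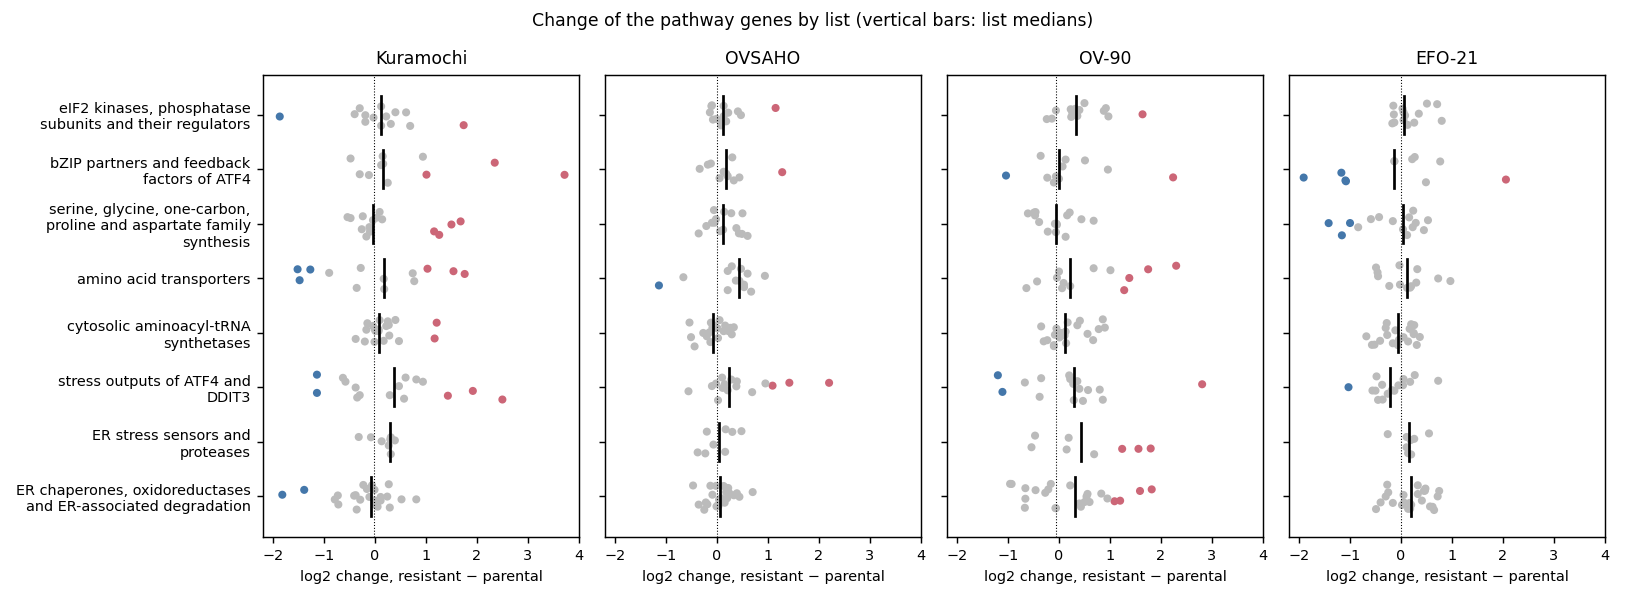
Resistant minus parental log2 difference of each of the 121 pathway genes (points), by list and line, with red for genes that rose, blue for genes that fell and grey for genes not counted as changed; black bars are list medians and dotted lines the median of all genes in the line. The coloured points lie mostly to the right in Kuramochi (16 against 8) and OV-90 (14 against 3) and mostly to the left in EFO-21 (8 against 1). Among the grey points of EFO-21, 42 were higher and 25 lower with an adjusted p under 0.05.

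The genes that set eIF2 phosphorylation gave 1 riser and 1 faller among 14 in Kuramochi (14.3%, against 22.5% of all genes). PPP1R15A (GADD34), the phosphatase subunit that reverses eIF2 phosphorylation, rose from 8.84 ± 0.15 to 10.58 ± 0.03 (SD, n = 3 and 3, change 1.74, limma adjusted p = 3.04e-05), and DNAJC3, an ER co-chaperone that restrains PERK, fell from 7.09 ± 0.35 to 5.23 ± 0.21 (change -1.87, limma adjusted p = 0.000724). In OVSAHO 1 of 14 rose (7.14%, against 7.76% of all genes), EIF2AK2 (PKR), the kinase activated by double-stranded RNA, by 1.15 (limma adjusted p = 0.00106). In OV-90 1 of 14 rose (7.14%, against 16.1% of all genes), PPP1R15B, the constitutive phosphatase subunit, by 1.64 (limma adjusted p = 0.0485), which was 0.89 without library 2. In EFO-21 0 of 14 changed, against 14.3% of all genes.

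Among 11 bZIP partners and feedback factors of ATF4, 3 rose in Kuramochi (27.3%, against 22.5% of all genes) and 1 rose in OVSAHO (9.09%, against 7.76%). In OV-90 1 rose and 1 fell (18.2%, against 16.1%), and in EFO-21 1 rose and 4 fell (45.5%, against 14.3%). NUPR1, a stress-induced chromatin protein, rose in Kuramochi from 6.31 ± 0.52 to 10.02 ± 0.15 (SD, n = 3 and 3), by 3.72 on the log2 scale (SE 0.25, limma adjusted p = 0.000103), the largest change among the 121 genes in any line. ATF3, a bZIP factor induced by many stresses, rose in 3 lines, by 2.35 in Kuramochi (limma adjusted p = 3.1e-05), 1.28 in OVSAHO (limma adjusted p = 0.000788) and 2.06 in EFO-21 (limma adjusted p = 0.000341), whereas in OV-90 its difference was -0.23 (limma adjusted p = 0.496). The TRIB3 relatives TRIB1 and TRIB2 did not follow 1 direction. TRIB1 rose by 2.24 in OV-90 (limma adjusted p = 0.0181) and fell in EFO-21 (change -1.17, limma adjusted p = 5.03e-05), and TRIB2 rose by 1.01 in Kuramochi (limma adjusted p = 0.000527) and fell in EFO-21 (change -1.91, limma adjusted p = 6.37e-05). JDP2, a bZIP repressor, fell in OV-90 (change -1.04, limma adjusted p = 0.0262).

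Of 15 genes for serine, glycine, folate, proline and aspartate family synthesis, 4 rose in Kuramochi (26.7%, against 22.5% of all genes) and 3 fell in EFO-21 (20%, against 14.3%). In OVSAHO and OV-90 0 changed, against 7.76% and 16.1% of all genes. PSPH, the enzyme after PSAT1 in serine synthesis, rose in Kuramochi from 6.10 ± 0.22 to 7.79 ± 0.06 (SD, n = 3 and 3, change 1.68, limma adjusted p = 0.000148). In the same line PHGDH and PSAT1 were lower by -0.75 and -0.66, so that the 3 steps of serine synthesis did not go in 1 direction. The other risers in Kuramochi were SHMT1, GLUL and ALDH1L2, named after their values were seen. In EFO-21 the largest fall was that of MTHFD1L, a mitochondrial folate enzyme (change -1.42, limma adjusted p = 6.38e-05), beside SHMT2 and ALDH1L2, again named after their values were seen. ALDH1L2 thus changed in both lines in opposite directions. Its values were low, going from 2.47 ± 0.62 to 3.73 ± 0.29 in Kuramochi (SD, n = 3 and 3, limma adjusted p = 0.0286). In EFO-21 they went from 4.21 ± 0.12 to 3.05 ± 0.30 (SD, n = 3 and 3, limma adjusted p = 0.00493).

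The 13 amino acid transporters gave 3 risers and 3 fallers in Kuramochi (46.2%, against 22.5% of all genes) and 1 faller in OVSAHO (7.69%, against 7.76%). There were 4 risers in OV-90 (30.8%, against 16.1%) and 0 changed genes in EFO-21 (against 14.3%). In Kuramochi SLC7A5, the leucine transporter LAT1, rose by 1.76 (SE 0.16, limma adjusted p = 0.00029), and SLC7A11, the cystine transporter, fell (change -1.52, SE 0.39, limma adjusted p = 0.0202), a call that was lost without library 16 or 18 (limma adjusted p = 0.0636 and 0.0635). In OVSAHO SLC6A9, a glycine transporter, fell (change -1.14, limma adjusted p = 0.00229), a change of -0.82 with an offset of 8 added to the values before the log. There, 12 of 13 transporters passed without a fold threshold, against 33.3% of all genes, 11 of them being below 2-fold. Of these 11, 10 were higher and 1 was lower in the resistant libraries. The median change of the 13 was 0.44 in OVSAHO, beside 0 for all genes. In OV-90 the cationic amino acid transporter SLC7A2 rose by 2.30 (limma adjusted p = 0.0172). Of 20 cytosolic aminoacyl-tRNA synthetases, which charge tRNA with amino acids, 2 rose in Kuramochi (10%, against 22.5% of all genes). In OVSAHO, OV-90 and EFO-21 0 of the 20 changed, against 7.76%, 16.1% and 14.3% of all genes. The larger of the rises was that of CARS1, at 1.21 (SE 0.11, limma adjusted p = 0.000265).

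Among 16 stress outputs of ATF4 and DDIT3, 3 rose and 2 fell in Kuramochi (31.2%, against 22.5% of all genes) and 3 rose in OVSAHO (18.8%, against 7.76%). In OV-90 1 rose and 2 fell (18.8%, against 16.1%), and in EFO-21 1 fell (6.25%, against 14.3%). GDF15, a secreted stress cytokine, rose in Kuramochi from 6.10 ± 0.30 to 8.60 ± 0.16 (SD, n = 3 and 3, change 2.50, limma adjusted p = 9.51e-05) and in OVSAHO by 1.09 (limma adjusted p = 0.000719). In OV-90 and EFO-21 its differences were 0.86 (limma adjusted p = 0.00794) and 0.73 (limma adjusted p = 0.00301), below 2-fold, so that the resistant libraries were above the parental ones in all 4 lines as for SESN2. The share of all genes with this pattern was not counted. BCL2L11 (BIM), a pro-apoptotic protein, fell in Kuramochi (change -1.14, limma adjusted p = 0.00391), with -0.98 without library 4. FGF21, a stress hormone, rose in OVSAHO by 2.20 (SE 0.54, limma adjusted p = 0.0268) from a low level of 1.23 ± 1.07 (SD, n = 3), and the call was lost without library 9, 19, 20 or 21. In OV-90 SESN3, another sestrin, rose from 3.26 ± 0.12 to 6.07 ± 0.14 (SD, n = 2 and 3, change 2.81, limma adjusted p = 0.00476), and DDIT4, an mTORC1 inhibitor, fell (change -1.20, limma adjusted p = 0.00967). VLDLR, a lipoprotein receptor, fell in EFO-21 (change -1.03, limma adjusted p = 6.91e-05) and rose in Kuramochi and OVSAHO by 1.43 and 1.42. Its OVSAHO values were low, at 1.83 ± 0.16 in parental and 3.25 ± 0.05 in resistant libraries (SD, n = 3 and 3).

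Of 8 ER stress sensors and proteases, 3 rose in OV-90 (37.5%, against 16.1% of all genes). In Kuramochi, OVSAHO and EFO-21 0 of the 8 changed, against 22.5%, 7.76% and 14.3% of all genes. Of 24 chaperones, oxidoreductases and degradation factors, 4 rose in OV-90, 2 fell in Kuramochi and 0 changed in OVSAHO or EFO-21. For the list of 24 this was 16.7% in OV-90, against 16.1% of all genes, and 8.33% in Kuramochi, against 22.5%. The 0 changed genes in OVSAHO and EFO-21 stood beside 7.76% and 14.3% of all genes. In OV-90 CREB3L2, a membrane-bound transcription factor, rose by 1.80 (SE 0.37, limma adjusted p = 0.0277) and SEL1L, part of the ER degradation complex, by 1.82 (SE 0.19, limma adjusted p = 0.0105), in the line where HSPA5 had its largest difference. The list of 24 did not go in 1 direction there. Without a fold threshold 58.3% of it passed in OV-90, against 36% of all genes. Below 2-fold, 5 were higher (PDIA3, DNAJB9, DNAJC10, SYVN1 and EDEM1) and 5 lower (DNAJB11, SDF2L1, CRELD2, MANF and SIL1), named after their values were seen. In Kuramochi the largest fall was that of DERL3, another degradation factor (change -1.82, SE 0.22, limma adjusted p = 0.00107). HYOU1, a large ER chaperone named after its values were seen, fell in Kuramochi (change -1.39) and rose in OV-90 by 1.20. Leaving out libraries was not run for HYOU1. Of the 8 OV-90 calls among the pathway lists for which it was, SESN3 kept its call when any 1 library was left out, while CREB3L2, SEL1L, TRIB1, SLC7A2, DDIT4, JDP2 and PPP1R15B lost theirs without any 1 of the 3 resistant libraries.

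**Figure D4:**
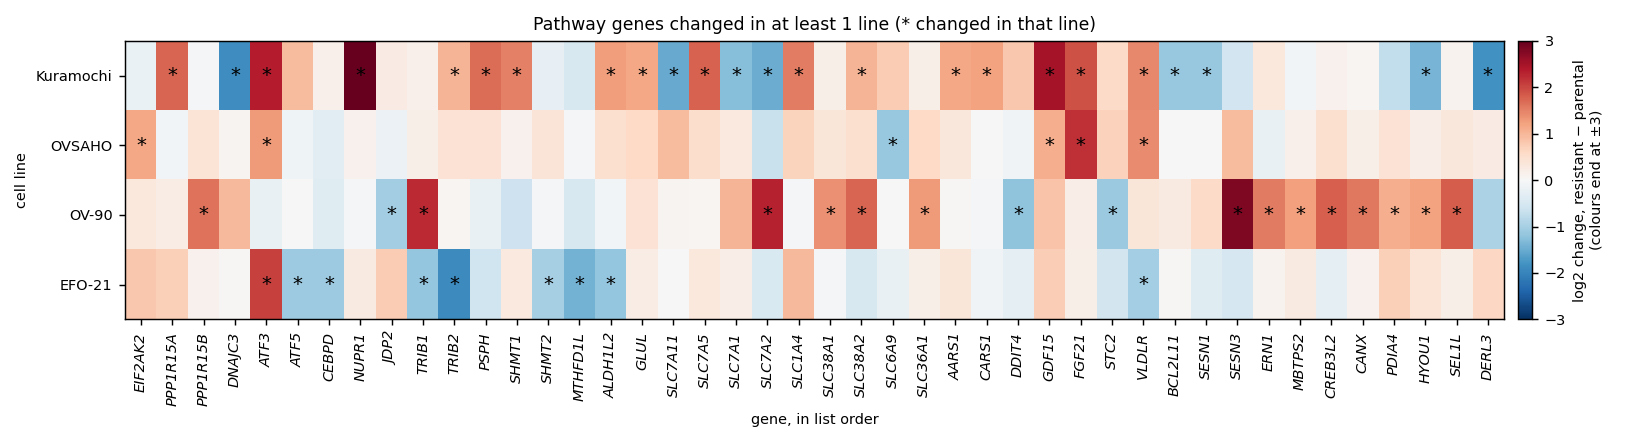
Resistant minus parental log2 difference in each line for the 44 pathway genes that changed in at least 1 line, in list order; red is higher and blue lower in the resistant line, colours end at a difference of 3, and asterisks mark the lines in which a gene changed. ATF3 and VLDLR carry 3 asterisks each, and no gene carries 4. How often genes changed in several lines was not counted over all genes.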

How the data were processed

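Stranded mRNA libraries were sequenced and aligned to GRCh37/hg19 by the authors, and reads over exons and junctions, without exons of few reads, were summarised per gene by a robust linear model (16448 genes) or by averaging log2 exon values (5210 genes). The unit deposited by the authors is log2 expression after quantile normalization, which hides any shift common to most genes. Other deposited columns describe the exon model per gene (number and weights of exons) and were not used, and 0 columns belonged to other samples. Without counts, depth is unknown. Symbols for 20745 of 21658 genes came from a RefSeq table, positions from GENCODE on GRCh37.

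Columns give line and resistance but no replicate number, which set the 8 groups. Each line was fitted with limma 3.58.1 (R 4.3.3, lmFit and eBayes with trend, no pseudocount or filter). Tests were two-sided with Benjamini-Hochberg adjustment over all genes, at an adjusted p of 0.05 and 2-fold. Exact permutation tests of 3 or 2 against 3 libraries cannot go below 0.1. The average used a line block, and line differences 8 group means with an interaction F test. In simulated data with a difference of 2 (log2) in 200 genes, 74.5% were recovered for Kuramochi, 80.5% for OVSAHO, 62% for OV-90 and 80.5% for EFO-21. The simulated noise had 1 spread per gene in all groups, so the wider spread of parental OV-90 was not represented. Most differences reported here are smaller than 2, and these shares do not measure the power to find them. Alternatives were a joint fit, no trend, robust eBayes, a filter at the 25th percentile, recentring, an offset of 8, 1.5-fold or no fold threshold, and leaving out each library or all libraries of 1 line, the last chosen after seeing the data.

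The 10 genes, the 8 pathway lists and the cell type markers were chosen with earlier results of these data known. Pathway genes were named for the largest rise and fall per list and line among changed genes, and others as stated. A gene among those most like HSPA5 is not reported here.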

Additional observations from a re-analysis of the deposited data

Results flagged for a closer look

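For 6 genes the change with resistance differed between lines in sign or size by the largest margin, by limma's test of the difference between lines in a fit of 8 group means. CHAC1 had the widest gap, its change in Kuramochi minus that in OV-90 being 3.57 (SE 0.28, limma adjusted p = 8.1e-09), and 33.8% of all genes were called in that comparison. It stayed between 3.31 and 3.83 with any 1 library left out. ASNS differed in the same comparison by 1.79 (SE 0.14, limma adjusted p = 4.94e-09), with 1.64 to 1.88 over the libraries left out, and PSAT1 by -1.30 (SE 0.16, limma adjusted p = 2.31e-06), with -1.64 to -0.96. The PSAT1 value depends most on the parental OV-90 libraries, which held 8.09 and 8.77.

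DDIT3 and TRIB3 were both higher in resistant Kuramochi and lower in resistant EFO-21, and the difference of the changes was 1.78 for DDIT3 (SE 0.26, limma adjusted p = 1.26e-05) and 1.32 for TRIB3 (SE 0.15, limma adjusted p = 8.71e-07), where 26.6% of all genes were called. With any 1 library left out they were 1.56 to 1.96 and 1.19 to 1.48. PHGDH was lower in resistant Kuramochi and higher in resistant OVSAHO, with a difference of the changes of -1.73 (SE 0.09, limma adjusted p = 3.01e-11), or -1.80 to -1.68 with 1 library left out, where 24.3% of all genes were called.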

How the results depend on the processing

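Of 470 recomputed differences of the 10 genes over the alternatives other than the fold thresholds, 453 kept their direction and their call by both thresholds together. The adjusted p alone crossed 0.05 in 44, of which 30 no longer passed and 14 newly passed. With no mean-variance trend, ATF4 in Kuramochi and ATF4, TRIB3 and SESN2 in OV-90 did not pass (limma adjusted p of 0.0566, 0.0598, 0.0757 and 0.0534). In 1 fit of all 23 libraries ASNS and PSAT1 in OV-90 and CHAC1 in EFO-21 newly passed (limma adjusted p of 0.0166, 0.000244 and 0.0242). The 9 that turned direction all came from leaving out 1 library where the difference was near 0. With 1 library left out, DDIT3 in OV-90 ranged from -0.35 (without library 3) to 0.19 (without library 2), and PHGDH in OV-90 from -0.01 to 0.08. In EFO-21 ATF4 ranged from -0.03 to 0.06, PHGDH from -0.04 to 0.06 and HSPA5 from -0.08 to 0.00. Of the pathway genes named, 39 of 355 recomputed differences lost their call, most of them in OV-90. With a threshold of 1.5-fold, 7, 2, 3 and 2 of the 10 genes were called in Kuramochi, OVSAHO, OV-90 and EFO-21, and 38, 14, 36 and 22 of the pathway genes, against 35.5%, 14.6%, 28.6% and 25.8% of all genes. With no fold threshold the counts were 9, 5, 5 and 5, and 64, 61, 52 and 76, against 46.9%, 33.3%, 36% and 48.4% of all genes. An offset of 8, which shrinks differences of low values by construction, left 3 pathway genes in OVSAHO and 5 in EFO-21. Among the named pathway genes it took BCL2L11 in Kuramochi, SLC6A9 and FGF21 in OVSAHO, JDP2 in OV-90 and VLDLR in EFO-21 below 2-fold, while PPP1R15B in OV-90 exceeded an adjusted p of 0.05 with that offset, with no trend and with robust eBayes (limma adjusted p of 0.051 to 0.061). With 1 library left out, 1 to 2 of the 10 genes were called in Kuramochi, 0 to 1 in OVSAHO and 0 to 3 in OV-90, and 19 to 22, 5 to 6, 1 to 28 and 7 to 10 pathway genes in the 4 lines, while 9 to 10 genes differed between lines in their change and 9 to 10 in their parental level. Where that left parental OV-90 with 1 library, it was assumed to vary like the resistant ones. The cause of these shifts was not tested. No paired analysis was possible because the columns carry no replicate numbers. Without counts or depths, no detection limit can be given, and with 2 or 3 libraries per group small differences in OV-90 are the least certain.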
